A study of Mus musculus with 12 samples.

Results

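Sp5, the TCF/LEF transcription factors and genes of Wnt/β-catenin feedback were followed through 4 groups of arrays from sorted mouse germ cells. The genes are Sp5, Tcf7l1, Tcf7l2, Tcf7, Lef1, Axin2, Nkd1, Ccnd1 and Ctnnb1, and every array probe that carries one of these 9 symbols in the platform's probe table was taken, which gave 23 of the 45281 probes. Tcf7 has no probe by this rule. The genes were chosen with the difference between Baz1a-/- and control round spermatids in view, so that difference is described below without a test, as is every other difference of these genes that uses the Baz1a-/- spermatid arrays.

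The groups were Baz1a-/- round spermatids (3 arrays), control round spermatids (3), Baz1a-/- spermatocytes (2 used, 1 left out) and control spermatocytes (3). Controls were Baz1a+/- littermates and so carried the deletion on 1 chromosome; all mice were adults of a mixed C57BL/6J and FVB/NJ background, maintained by brother-sister mating, in a line from a single targeted stem cell clone whose floxed exon had been deleted in the germ line with Stra8-Cre. BAZ1A is the large subunit of the chromatin remodelers ACF and CHRAC. Pachytene/diplotene spermatocytes and round spermatids were enriched from dissociated testes by Hoechst staining and FACS, and the labels' identifiers give both cell types of a mouse the same replicate number. The study left Baz1a-/- spermatocyte replicate 1 out of its tests because spermatid RNA was found in it, and it is left out of every test here unless it is named.

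In the Wnt/β-catenin pathway, a secreted Wnt ligand binds Frizzled and LRP receptors and halts the complex that marks β-catenin for destruction. β-catenin then enters the nucleus and binds the TCF/LEF factors, which otherwise hold target genes down with Groucho/TLE co-repressors. Sp5, Axin2, Nkd1, Lef1 and Ccnd1 are well known targets of the pathway in embryonic and adult tissues, and Sp5, Axin2 and Nkd1 act back on it. SP5 is a zinc finger protein that binds GC-rich sequences, TCF7L1 (also called TCF3) is the TCF/LEF member best known as a repressor, and Ctnnb1 encodes β-catenin itself.

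The promoters of Sp5 and Tcf7l1 are shown because their probes were the 2 called between genotypes in round spermatids. Each window runs from 250 bases before to 50 bases after the RefSeq start (GRCm38.p6), 5′ to 3′ on the gene's own strand, and capitals mark 2 motifs searched on both strands, the TCF/LEF core CTTTGA and the GC box GGGCGG, whose matches can share 1 base where they meet; neither window held both motifs. Other spellings of the TCF/LEF site were not searched, so a window said to hold no core held no CTTTGA on either strand. RefSeq windows matched 8 of the 9 genes. Sp5 lies on the plus strand (chr2:70474673-70474972) and Tcf7l1 on the minus strand (chr6:72788996-72789295).
Sp5: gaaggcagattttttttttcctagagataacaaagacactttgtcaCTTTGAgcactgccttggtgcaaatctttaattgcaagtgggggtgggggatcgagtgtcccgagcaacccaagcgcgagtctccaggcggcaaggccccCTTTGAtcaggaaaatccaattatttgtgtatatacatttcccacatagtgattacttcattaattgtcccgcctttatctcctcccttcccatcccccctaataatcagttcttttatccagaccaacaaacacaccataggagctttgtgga
Tcf7l1: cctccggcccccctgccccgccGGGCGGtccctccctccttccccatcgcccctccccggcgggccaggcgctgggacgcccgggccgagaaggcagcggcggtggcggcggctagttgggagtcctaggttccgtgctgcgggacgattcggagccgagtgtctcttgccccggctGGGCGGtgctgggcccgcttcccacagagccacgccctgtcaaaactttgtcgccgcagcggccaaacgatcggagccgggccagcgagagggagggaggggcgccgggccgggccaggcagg
The Sp5 window held 2 copies of the TCF/LEF core, at positions -204 and -104 from the start, and no GC box, with a GC content of 45%. The Tcf7l1 window held no core and 2 GC boxes, at positions -228 and -73, with a GC content of 75.3%. Of 32851 mouse windows of the same 300 bases, 16% held the core at least once and 1.73% held it 2 or more times, whereas 35.7% held the GC box and 19.5% held it 2 or more times. Among the other genes, 1 of the 4 Lef1 windows held 2 cores, and the windows of Tcf7l2, Tcf7, Axin2, Nkd1 and Ctnnb1 held none.

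Values are log2 signals after background correction and quantile normalization, on which about 4.3 is background: the lowest signal called detected (detection p under 0.05) was 4.73 to 4.91 on the 12 arrays. Between 36.2% and 41.4% of probes were detected on each of the 11 arrays used, and the median SD between arrays of a group was 0.20 to 0.23. Of the 23 probes, 15 were detected on at least 1 of these 11 arrays and were tested, among 28751 tested in all; only 1 Lef1 probe and 2 Ctnnb1 probes were detected on all 11. A probe is called where the fold is at least 2 and the Benjamini-Hochberg adjusted p in limma, over all tested probes, is under 0.05. No probe in the table carries the symbol Baz1a, so the deleted gene itself was not analysed here. The labelled cell types were borne out by their markers: the mean log2 signal of 11 spermatid markers was 12.11 to 12.30 in Baz1a-/- spermatids and 11.93 to 12.21 in control spermatids, against 7.90 to 10.23 in Baz1a-/- spermatocytes and 7.01 to 8.92 in control spermatocytes. All 11 were detected on every array, the spermatocyte arrays included. The mean of 10 spermatocyte markers was 8.39 to 8.54 in Baz1a-/- spermatids and 8.53 to 8.77 in control spermatids, against 9.88 to 10.05 in Baz1a-/- spermatocytes and 9.81 to 10.02 in control spermatocytes.

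Sp5 was far brighter in Baz1a-/- than in control round spermatids. Its probe (ILMN_2641201; gene on chromosome 2 at 70474923 to 70477726) gave log2 signals of 10.15, 9.44 and 9.64 in Baz1a-/- spermatids, against 4.94, 4.67 and 4.47 in control spermatids. The groups were far apart, and only 1 of the 3 control arrays detected the probe at all. The fitted difference was 5.05 log2 (SE 0.25). With each control array set no lower than its lowest detected signal, Sp5 was at least 29.3-fold higher. Folds given as "at least", here and below, allow for the detection floor alone. They leave out the spread between arrays, so an interval can reach below them.

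Tcf7l1 was likewise higher by 1 of its 2 probes. Probe ILMN_3109289 (gene on chromosome 6 at 72626371 to 72789045) gave 7.61, 7.51 and 7.77 in Baz1a-/- spermatids and 4.51, 4.44 and 4.67 in control spermatids, where no array detected it. The fitted difference was 3.09 log2 (SE 0.18), and with the control level set no lower than the lowest detected signal of each array the signal was at least 7.08-fold higher. The other Tcf7l1 probe, ILMN_2771781, was detected on none of the 11 arrays (group means 4.36 to 4.53), so the probes of this gene disagree. They are assigned to different RefSeq transcripts of Tcf7l1, so the rise was seen only by the probe assigned to 1 of these.

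**Figure D1:**
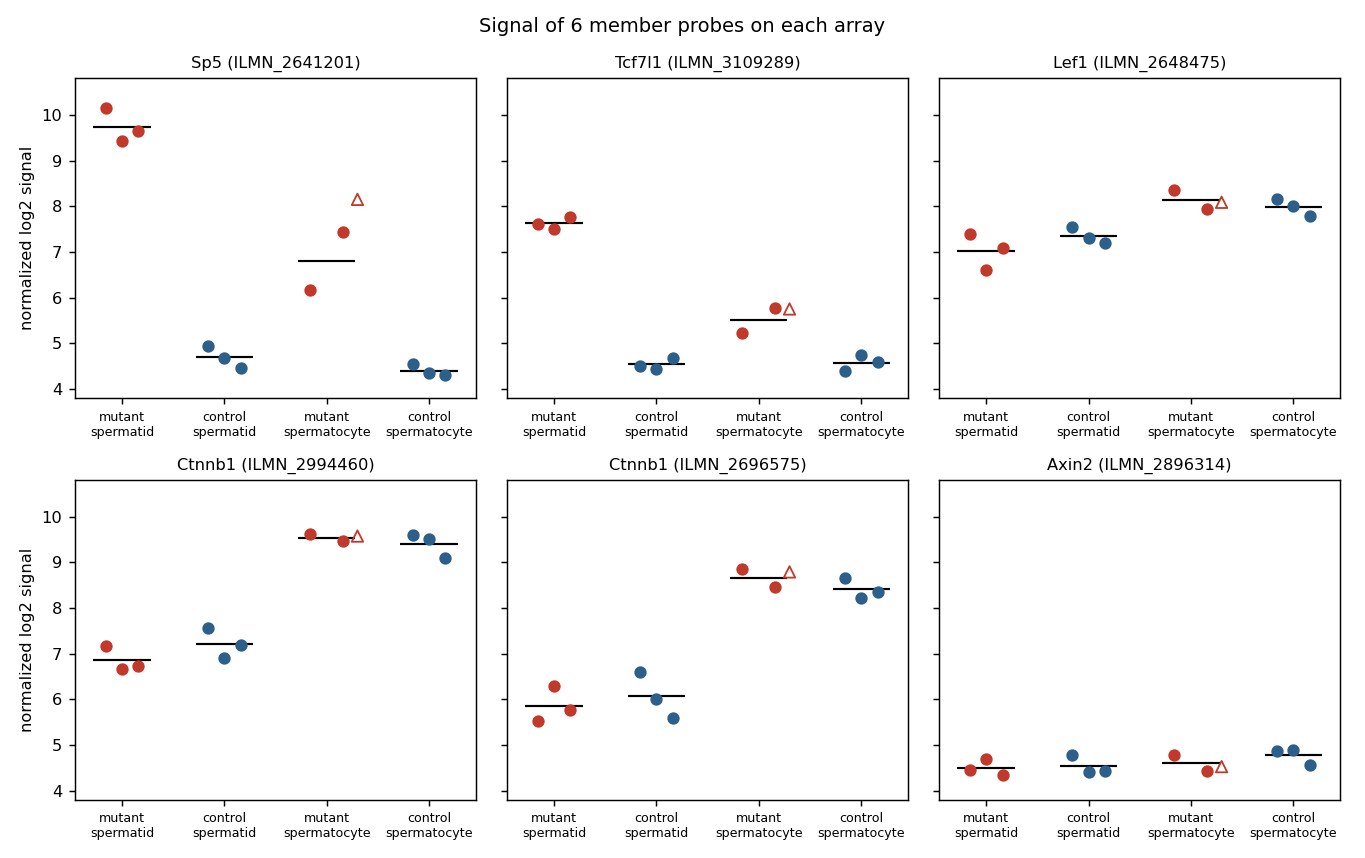
Normalized log2 signal (y axis) of 6 probes on each array, by group (x axis); filled points are arrays used, the open triangle is the left-out Baz1a-/- (mutant) spermatocyte replicate 1, and lines are means of the arrays used. Sp5 and Tcf7l1 are high in mutant spermatids and intermediate in mutant spermatocytes, Ctnnb1 is lower in spermatids than in spermatocytes of both genotypes, and Axin2 stays near background throughout.

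The remaining TCF/LEF factors did not share this pattern. In round spermatids 2 of the 15 tested probes were called, both higher, beside 4.03% of all tested probes called (2.87% higher and 1.16% lower). Since this contrast chose the genes, nothing is read from that count. The other 13 probes differed by -0.43 to 0.26 log2 (SE 0.16 to 0.26), and the median of all 15 was 0.01 beside -0.03 over all tested probes.

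Lef1, which encodes the lymphoid TCF/LEF factor, was clearly present in both cell types by probe ILMN_2648475 (gene on chromosome 3 at 131110297 to 131224357). Its signals were 7.39, 6.61 and 7.08 in Baz1a-/- spermatids and 7.55, 7.31 and 7.21 in control spermatids. These ranges overlap, and the difference was -0.33 log2 (95% interval -0.76 to 0.11). The dimmer Lef1 probe ILMN_1239469 gave 4.28, 4.53 and 4.63 in Baz1a-/- spermatids, none detected, against 4.84, 4.87 and 5.05 in control spermatids, all detected. The groups do not overlap, as for 23% of all tested probes. The probe was not called (-0.43 log2, 95% interval -0.79 to -0.07). With each Baz1a-/- array set no lower than its lowest detected signal, the control mean was 1.07-fold higher. The other 2 Lef1 probes were detected nowhere.

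Tcf7l2, the main TCF factor of the intestine, had 6 probes, of which 5 were detected on no array used. The sixth, ILMN_2641647, was detected only on Baz1a-/- spermatid replicate 2 (5.07) and Baz1a-/- spermatocyte replicate 3 (4.97), and its spermatid difference was 0.26 log2 (95% interval -0.21 to 0.74).

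The feedback genes stayed near background. Axin2, a scaffold of the destruction complex, gave 4.45, 4.69 and 4.33 in Baz1a-/- spermatids and averaged 4.54 ± 0.21 in control spermatids (SD, n = 3), with a difference of -0.02 log2 (95% interval -0.41 to 0.36). It was detected on 1 control spermatid and 2 control spermatocyte arrays and on no Baz1a-/- array. Nkd1, whose product binds Dishevelled and dampens the signal, had differences of 0.20 and 0.21 log2 by its 2 probes, each detected on 1 or 2 of the 11 arrays. Ccnd1, the gene of cyclin D1, had 3 probes with differences of -0.13, 0.20 and 0.02 log2, each detected on 1 to 3 arrays. At such low signals differences are compressed, so these intervals describe the signal and not the RNA.

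Ctnnb1 was well detected by 2 of its 4 probes and differed little between genotypes. ILMN_2994460 gave 7.16, 6.67 and 6.73 in Baz1a-/- spermatids and 7.56, 6.90 and 7.18 in control spermatids, a difference of -0.37 log2 (95% interval -0.82 to 0.08). ILMN_2696575 gave 5.53, 6.29 and 5.77 in Baz1a-/- spermatids and 6.61, 6.00 and 5.59 in control spermatids, a difference of -0.09 log2 (95% interval -0.66 to 0.47). The groups overlap on both probes. The other 2 Ctnnb1 probes were detected on no spermatid array.

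**Figure D2:**
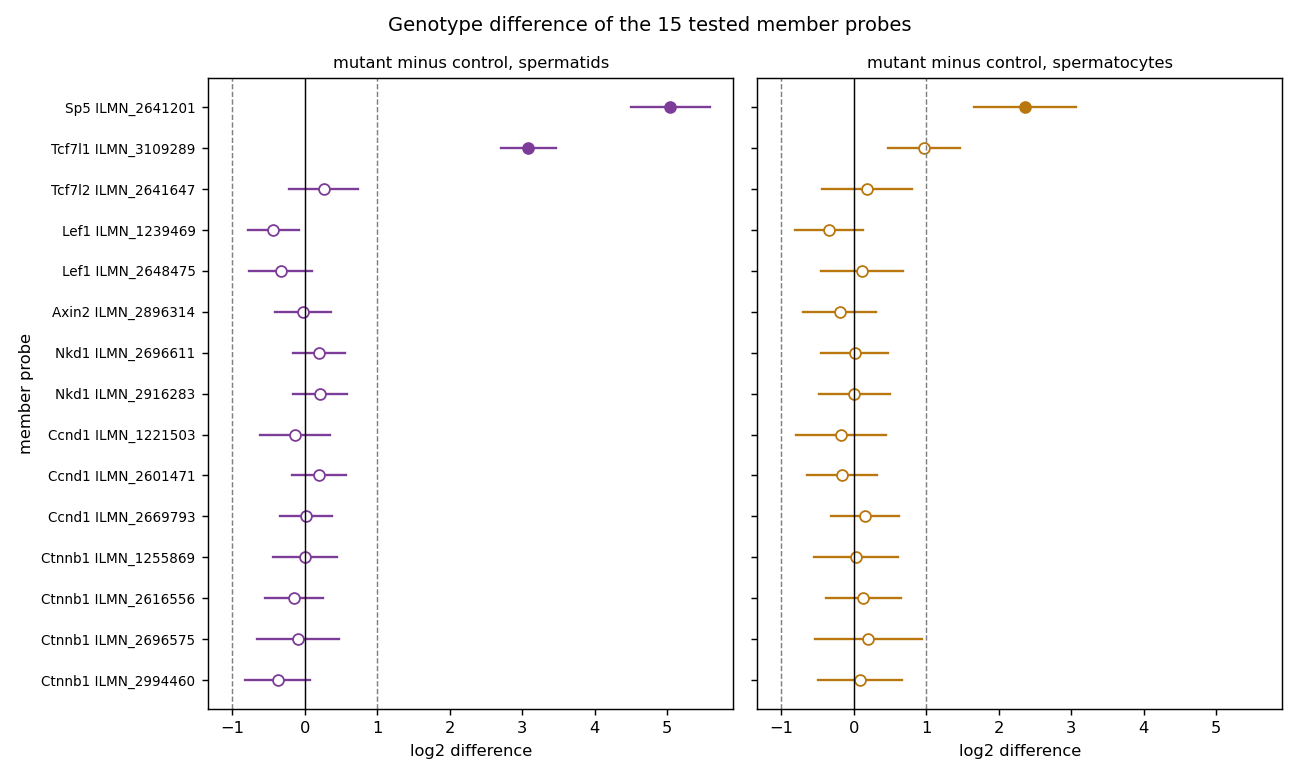
Log2 difference, mutant minus control (x axis), of each tested probe (y axis) in round spermatids (left) and spermatocytes (right); points are fitted differences, lines their 95% intervals, filled points are called, and dashed lines mark a fold of 2. Sp5 (5.05) and Tcf7l1 (3.09) stand apart in spermatids and Sp5 (2.37) in spermatocytes, while Tcf7l1 in spermatocytes (0.96) lies next to the fold line.

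Mutant and control spermatocytes were compared on arrays other than those of the contrast that chose the genes. These arrays came from the same mice, and the genes were chosen with earlier results of these data known. The p-values below are therefore not those of an independent test. Sp5 rose here as well. It gave 6.17 and 7.43 in the 2 Baz1a-/- arrays, both detected, and 4.54, 4.36 and 4.29 in control spermatocytes, none detected. The difference was 2.37 log2 (SE 0.32, limma adjusted p = 0.00608), or at least 3.97-fold. It was higher in 2 of 2 Baz1a-/- arrays than in every control array, and these groups did not overlap for 20.3% of all tested probes. Sp5 was the only 1 of the 15 probes called, beside 0.41% of all tested probes called (0.264% higher and 0.146% lower). The call was lost when only the spermatocyte groups were fitted (2.37 log2, adjusted p = 0.197), and it was lost with a background offset of 50 (1.41 log2, adjusted p = 0.061) or without background correction (0.98 log2, adjusted p = 0.124).

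Tcf7l1 did not pass the test in spermatocytes. It gave 5.23 and 5.78 in Baz1a-/- spermatocytes, both detected, and 4.40, 4.74 and 4.59 in control spermatocytes, none detected. The groups do not overlap, as for 20.3% of all tested probes. The difference was 0.96 log2 (SE 0.23, 95% interval 0.47 to 1.46, limma adjusted p = 0.134). With each control array set no lower than its lowest detected signal, the means differed by 1.62-fold. Without Baz1a-/- spermatocyte replicate 2 the difference was 1.25 log2. It then rested on replicate 3 alone, the array of these 2 with the higher share of spermatid markers given below. The other 13 probes differed by -0.34 to 0.20 log2 and did not pass the test, each with an interval that spans 0.

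The spermatid RNA in the spermatocyte fractions varied, and its values stand beside Sp5 here. In each mouse the spermatocyte signal above the offset was expressed as a percent of that mouse's spermatid signal. The median of the 11 spermatid markers was 3.83% in Baz1a-/- replicate 2 and 22.7% in Baz1a-/- replicate 3, against 7.99%, 1.47% and 9.56% in control replicates 1, 2 and 3. On the same scale Sp5 stood at 8.24% and 20.1% in Baz1a-/- replicates 2 and 3, and Tcf7l1 at 13.0% and 19.2%. In replicate 2 both genes thus lay above the marker median, with 8 of 11 markers below Sp5 and 9 of 11 below Tcf7l1, and in replicate 3 both lay just below it, with 4 of 11 markers lower.

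**Figure D3:**
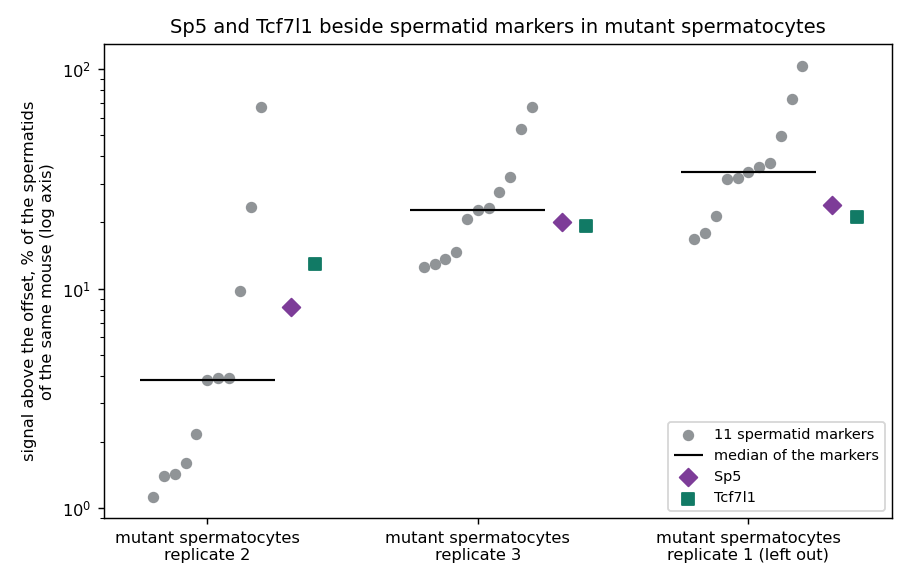
Signal above the offset in each Baz1a-/- spermatocyte array as a percent of the same mouse's spermatid array (y axis, log scale), for 11 spermatid markers (grey, line at their median), Sp5 and Tcf7l1; the x axis gives the replicates, the left-out array last. The marker medians are 3.83%, 22.7% and 33.9%, and both genes lie above the median in replicate 2 and below it in the other arrays. Background left in the signal raises the percents of dim probes more than those of the bright markers.

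Across development, spermatids were set against spermatocytes within each genotype. In controls both Sp5 and Tcf7l1 lay near background: Sp5 averaged 4.69 ± 0.24 in control spermatids and 4.40 ± 0.13 in control spermatocytes (SD, n = 3 each) and was detected on 1 of these 6 arrays, and Tcf7l1 averaged 4.54 ± 0.12 in control spermatids and 4.58 ± 0.17 in control spermatocytes and was detected on none, so no difference is read between them. In the Baz1a-/- arrays the difference was 2.90 log2 (SE 0.34) for Sp5 and 2.14 log2 (SE 0.24) for Tcf7l1. The genotype difference in spermatids exceeded that in spermatocytes by 2.68 log2 (SE 0.41) for Sp5 and by 2.12 log2 (SE 0.29) for Tcf7l1. These were the 2 of 15 probes called in that contrast, both higher, beside 0.153% of all tested probes called (0.129% higher and 0.0243% lower); it shares the Baz1a-/- and control spermatid arrays with the contrast that chose the genes.

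Ctnnb1 was lower in spermatids than in spermatocytes of both genotypes. In controls, ILMN_2994460 gave 7.56, 6.90 and 7.18 in spermatids against 9.59, 9.51 and 9.08 in spermatocytes, and ILMN_2696575 gave 6.61, 6.00 and 5.59 in spermatids against 8.66, 8.23 and 8.35 in spermatocytes. Every control spermatid lay below every control spermatocyte, and these groups did not overlap for 51.4% of all tested probes. The differences were -2.27 log2 (SE 0.20, limma adjusted p = 4.90e-07) and -2.48 log2 (SE 0.25, limma adjusted p = 1.74e-06). These were the 2 of 15 probes called in controls, beside 28.3% of all tested probes called (15.2% lower and 13% higher); the control spermatid arrays also served the contrast that chose the genes.

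In Baz1a-/- cells the same Ctnnb1 probes differed by -2.73 log2 (SE 0.28) and -2.78 log2 (SE 0.35). The spermatid signals are given above. The 2 spermatocyte arrays gave 9.62 and 9.46 for ILMN_2994460 and 8.86 and 8.47 for ILMN_2696575, above every Baz1a-/- spermatid. These groups did not overlap for 58.2% of all tested probes. The fall differed between genotypes by -0.46 log2 (95% interval -1.19 to 0.28) and -0.29 log2 (95% interval -1.22 to 0.64). The gene lies on chromosome 9 at 120933400 to 120960507. Because each array was scaled to the same distribution, and because fewer cells of a type and less RNA per cell cannot be told apart in sorted bulk samples, these differences are relative levels within the RNA of each fraction.

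Lef1 was lower in spermatids than in spermatocytes. In controls ILMN_2648475 gave 7.55, 7.31 and 7.21 in spermatids and 8.15, 8.01 and 7.80 in spermatocytes, with no overlap, as for 51.4% of all tested probes. The difference of -0.71 log2 (SE 0.19, limma adjusted p = 0.00728) is under a fold of 2 and is not called, and the dimmer probe ILMN_1239469 gave -0.56 log2 (SE 0.16, limma adjusted p = 0.00926). In the Baz1a-/- arrays the differences were -1.15 log2 (SE 0.27) and, for the dimmer probe, a spermatocyte signal at least 1.26-fold that of spermatids. In that contrast 2 probes were called higher (Sp5 and Tcf7l1) and 3 lower (Lef1 and both Ctnnb1 probes), beside 31.3% of all tested probes called (14.8% higher and 16.5% lower), and the groups did not overlap for 8 of 15 probes beside 58.2% of all tested. Axin2, Nkd1, Ccnd1 and Tcf7l2 were called in neither genotype.

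**Figure D4:**
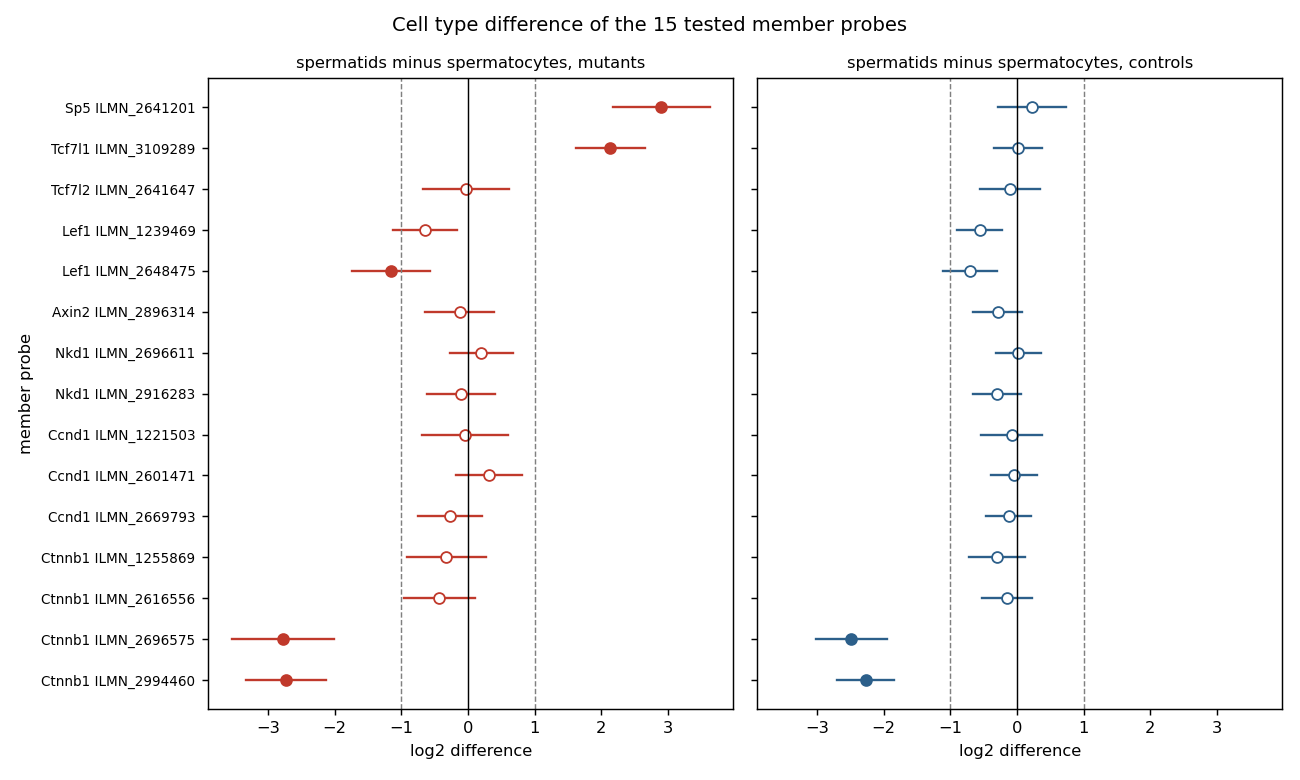
Log2 difference, spermatids minus spermatocytes (x axis), of each tested probe (y axis) in mutants (left) and controls (right); points are fitted differences, lines their 95% intervals, filled points are called, and dashed lines mark a fold of 2. The 2 bright Ctnnb1 probes are lower by 2.27 to 2.78 log2 in both panels, and Sp5 (2.90) and Tcf7l1 (2.14) are higher in mutants.

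The wider Wnt pathway was read through 7 lists of other genes, 129 in all, of which 83 were tested by their brightest probe. The lists were chosen with earlier results of these data known, so the adjusted p-values of their genes are given as a description. In round spermatids 4 of the 83 rose in Baz1a-/- (4.82%, beside 3.64% of all 14775 genes) and 0 fell (beside 1.46%), and their median difference was 0.07 log2. The 4 were Rspo2, Frzb, Bcl9 and Sox9. None of 15 receptors, 12 Dishevelled and destruction complex genes or 5 other Sp factors was called.

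Rspo2, a secreted enhancer of Wnt signals, gave 5.60, 5.85 and 6.79 in Baz1a-/- spermatids and 4.33, 4.42 and 4.29 in control spermatids, where it was not detected, and was at least 2.42-fold higher (limma adjusted p = 0.000397). Frzb, a secreted Wnt antagonist, gave 5.86, 5.81 and 6.16 in Baz1a-/- spermatids and 4.55, 4.52 and 4.32 in control spermatids, also not detected, and was at least 2.20-fold higher (limma adjusted p = 0.000176). Bcl9, a β-catenin cofactor, averaged 7.09 ± 0.60 in Baz1a-/- spermatids and 5.43 ± 0.54 in control spermatids (SD, n = 3 each), a difference of 1.68 log2 (SE 0.30, limma adjusted p = 0.00344), and 3 of its 4 tested probes were called. Sox9, which is a Wnt target in some tissues and also a Sertoli cell gene, gave 5.77, 5.57 and 6.36 in Baz1a-/- spermatids and 4.86, 4.65 and 4.73 in control spermatids, a difference of 1.21 log2 (SE 0.23, limma adjusted p = 0.00497). Only 1 of these 4 calls was left with a background offset of 50, and none without background correction. A ligand enhancer and an antagonist of the pathway were both among the genes that rose.

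**Figure D5:**
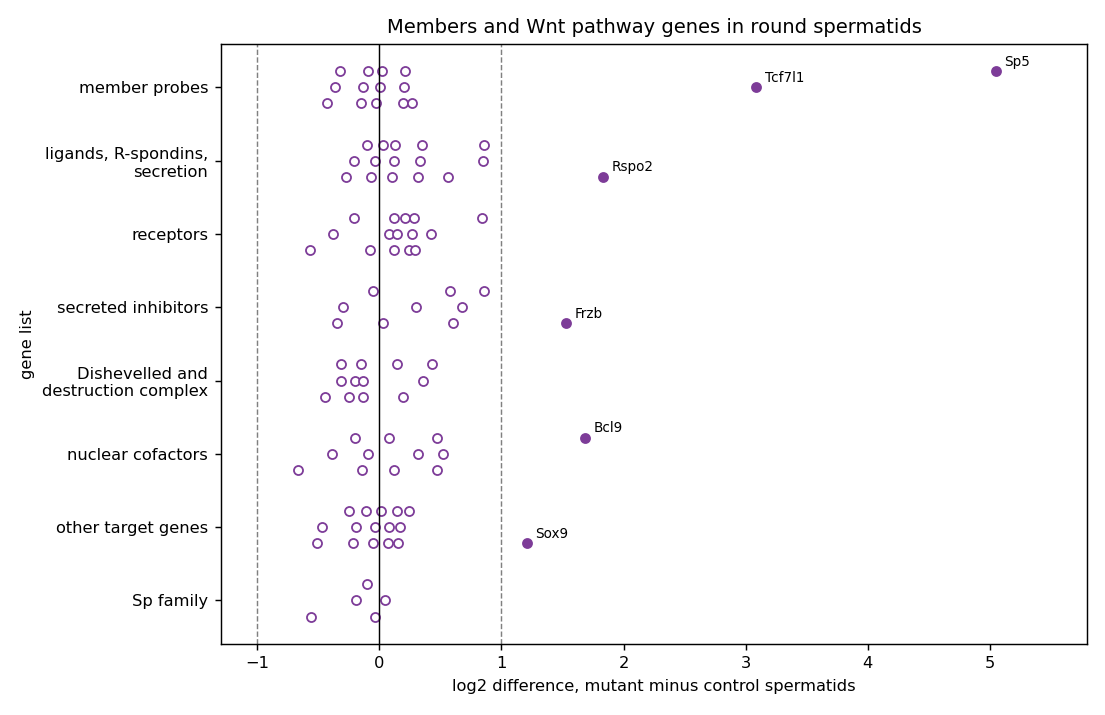
Log2 difference, mutant minus control round spermatids (x axis), of the tested member probes and of each tested gene in the 7 pathway lists (y axis); filled and named points are called, and dashed lines mark a fold of 2. Sp5 and Tcf7l1 were chosen by this contrast, and in the lists Rspo2, Frzb, Bcl9 and Sox9 pass the fold line.

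In spermatocytes 1 of the 83 pathway genes rose (1.2%, beside 0.365% of all genes) and 0 fell (beside 0.19%). This was Dkk3, a secreted protein of the Dickkopf family. It gave 5.66 and 5.67 in Baz1a-/- spermatocytes and 4.48, 4.28 and 4.79 in control spermatocytes, where it was not detected, a difference of 1.17 log2 (SE 0.21, limma adjusted p = 0.0319) and at least 1.81-fold. It was 1 of 3 Dkk3 probes to be called, and the call was lost without control spermatocyte replicate 1 or 2, or without control spermatid replicate 2 or 3.

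Between control spermatids and control spermatocytes the pathway genes moved both ways: 8 of 83 rose (9.64%, beside 14.7% of all genes) and 13 fell (15.7%, beside 16.7%). Of 16 ligand and ligand-processing genes 1 rose and 2 fell, and of 15 receptor genes 4 rose and 2 fell. Wnt3a, a canonical ligand, was 2.95 log2 higher in spermatids (SE 0.34, limma adjusted p = 5.94e-06), and Znrf3, a ubiquitin ligase that removes Frizzled receptors, was at least 4.76-fold higher (limma adjusted p = 2.09e-06). Sostdc1, a secreted LRP antagonist, was 3.11 log2 higher (SE 0.27, limma adjusted p = 5.25e-07). Lrp5, a Wnt co-receptor, was at least 2.84-fold higher by its brightest probe (limma adjusted p = 6.31e-07). Its other tested probes, at 0.78, 0.29 and 0.20 log2, were not called. Among those that fell, the ligands Wnt5b and Wnt7a differed by -1.35 log2 (SE 0.18, limma adjusted p = 3.18e-05) and -1.05 log2 (SE 0.21, limma adjusted p = 0.000924), and the receptor gene Ryk by -1.44 log2 (SE 0.23, limma adjusted p = 0.000110). Dvl1, which relays the signal from the receptor, fell in spermatids, with a difference of -2.05 log2 (SE 0.17, limma adjusted p = 3.98e-07).

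Of 4 tested genes of the Groucho/TLE family, which includes TCF/LEF co-repressors, 1 was called higher and 1 lower in control spermatids. Tle4 (-0.60 log2) and Tle5 (-0.73 log2) lay under the fold of 2. Tle3 gave 8.45 ± 0.16 in spermatids and 5.23 ± 0.57 in spermatocytes (SD, n = 3 each), a difference of 3.28 log2 (SE 0.34, limma adjusted p = 2.15e-06) by its brightest probe, with 3 of 4 tested probes called higher. Tle1 gave 4.63 ± 0.13 in spermatids and 7.44 ± 0.37 in spermatocytes, a difference of -2.76 log2 (SE 0.23, limma adjusted p = 3.75e-07), with 3 of 4 tested probes called lower. Gsk3b, the kinase that marks β-catenin, was 3.31 log2 higher in spermatids by its brighter probe (SE 0.22, limma adjusted p = 7.07e-08), while its other probe was lower, by -0.83 log2 (SE 0.21, adjusted p = 0.00446), so the probes of Gsk3b disagree.

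The mean signals of several marker lists of other testis cells were higher in Baz1a-/- than in control spermatids, with 1 or 2 genes of each such list called. The mean log2 signal of 9 endothelial markers was 5.96 to 6.35 in Baz1a-/- spermatids and 5.18 to 5.46 in control spermatids, with 5 to 8 and 4 to 5 of them detected. That of 10 peritubular myoid and fibroblast markers was 6.04 to 6.07 in Baz1a-/- spermatids, against 5.19 to 5.39 in control spermatids, and that of 4 Leydig cell markers was 6.31 to 7.46, against 5.33 to 6.23. That of 6 macrophage markers was 5.58 to 5.95 in Baz1a-/- spermatids and 5.23 to 5.39 in control spermatids. Egfl7 and Cldn5 were called in the endothelial list (2 of 9, median 0.39 log2). Lum and Igfbp7 were called among myoid and fibroblast markers (2 of 10, median 0.36). In the Leydig list they were Cyp17a1 and Cyp11a1 (2 of 4, median 1.14), and in the macrophage list Cd14 (1 of 6, median 0.08). Sox9 was called among the Sertoli markers (1 of 6, median 0.23). All these calls were higher, beside 3.64% of all genes called higher and 1.46% lower. Lum (2.97 log2) and Igfbp7 (3.09) differed most in the myoid and fibroblast list, whereas the smooth muscle genes Myh11 (-0.37), Cnn1 (-0.41) and Tagln (-0.15) were not called. The ranges overlapped for 6 Sertoli markers (5.26 to 5.65 in Baz1a-/- and 5.16 to 5.58 in control spermatids), 5 T lymphocyte markers (5.55 to 5.71 and 5.42 to 5.69) and 7 spermatogonial markers (4.89 to 5.09 and 5.01 to 5.21). In spermatocytes the endothelial mean was 5.40 to 5.52 in Baz1a-/- and 4.76 to 4.92 in controls, and the myoid and fibroblast mean 5.19 to 5.21 in Baz1a-/- and 4.86 to 4.99 in controls. Their part in the differences of Sp5, Tcf7l1, Dkk3 and the 4 pathway genes of spermatids was not tested.

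Sp5 and Tcf7l1 followed each other over the 11 arrays (Pearson r = 0.983), which share the group differences described above. The genes whose signals were most like Sp5 were Lhx1 (r = 0.991), Pcdh17 (0.986), Sdk1 (0.983), Cldn23 (0.983) and Tcf7l1 (0.983). Those most like Tcf7l1 were Pcdh10 (r = 0.985), Klk1b24 (0.984), Igfbp7 (0.984), Epha6 (0.983) and Sp5 (0.983), and Igfbp7 is also 1 of the myoid and fibroblast markers. Every one of these genes was higher in Baz1a-/- spermatids, as the choice by likeness makes them; Pcdh17, for example, averaged 10.12 in Baz1a-/- spermatids, 6.38 in control spermatids, 8.39 in Baz1a-/- spermatocytes and 5.94 in control spermatocytes.

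The genes next to Sp5 and Tcf7l1 were then examined, taking the 3 nearest tested genes on each side. None of the 6 around Tcf7l1 was called in either cell type, with spermatid differences of -0.27 to -0.02 log2. Around Sp5, Ssb, Ubr3, Myo3b, Erich2 and Gorasp2 were not called, but Gad1, 83.6 kb away on the side of higher coordinates and beyond Erich2, was. Gad1 encodes the glutamate decarboxylase that makes GABA. Its brighter probe ILMN_1234988 gave 5.95, 5.36 and 6.24 in Baz1a-/- spermatids and 4.25, 4.26 and 4.63 in control spermatids, none of these detected, and was at least 2.06-fold higher (1.45 log2, limma adjusted p = 0.00492).

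In spermatocytes the same Gad1 probe gave 6.43 and 7.37 in the 2 Baz1a-/- arrays and 5.12, 5.14 and 4.39 in control spermatocytes, a difference of 1.94 log2 (SE 0.35, limma adjusted p = 0.0334). Its other tested probe, ILMN_2621743, gave 6.58 and 7.08 in Baz1a-/- spermatocytes against 4.71, 5.26 and 4.67 in control spermatocytes, a difference of 1.97 log2 (SE 0.26, limma adjusted p = 0.00556), but was not called in spermatids (0.74 log2). Unlike Sp5, Gad1 was lower in Baz1a-/- spermatids than in Baz1a-/- spermatocytes, by -1.03 log2 (SE 0.36, limma adjusted p = 0.0381) and -1.57 log2 (SE 0.27, limma adjusted p = 0.000371).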

How the data were processed

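Round spermatids and spermatocytes of Baz1a-/- and Baz1a+/- mice were profiled on Illumina MouseWG-6 v2.0 arrays. The authors deposited bead intensity per probe, neither background-corrected nor normalized, with a detection p-value (exported with GenomeStudio 2011.1 per the processing notes), and log2 values made by normexp with control probes and quantile normalization (limma 3.12.1). Here the intensities were corrected by normexp with an offset of 16, negative controls being inferred from the detection p-values, then quantile normalized over all 12 arrays with limma 3.58.1 in R 4.3.3; values differed from the deposited log2 values by at most 0.0458. Low signals are compressed by the offset, and precision is limited by how few arrays there are.

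Probes detected on at least 1 of 11 arrays were tested by lmFit on group means, weighting arrays, with eBayes. Poor quality probes were not removed, since that annotation was not used here. Calls needed a fold of 2 and an adjusted p under 0.05. "At least" folds set the dim group no lower than the lowest detected signal of each array. They are differences of group means and leave out the spread between arrays. Of the probes, 34885 had 1 gene symbol, 18 several and 10378 none in the platform table. The steps were tested on simulated data. The members and lists were chosen with earlier results of these data known. Named were all members, called pathway genes (up to 3 per list between cell types; not all are printed), the 5 genes most like Sp5 and Tcf7l1, and their 3 nearest tested neighbours on each side; the marker genes, Tle4 and Tle5 were chosen after their values were seen. Both cell types of a mouse share its number by the labels. Deviations from group means correlated at 0.00 to 0.23 within control mice and at -0.04 to 0.14 within Baz1a-/- mice. The latter rest on mirrored deviations, since few Baz1a-/- spermatocyte arrays were used. Within a cell type each array is 1 mouse. The spread behind the p-values between genotypes was estimated over all groups together. It therefore pools both cell types and counts arrays of the same mouse as independent. Comparisons between cell types used arrays of the same mice, which the main fit did not pair. Alternatives covered background, normalization, filter, weights, block, fold and each array left out.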

Additional observations from a re-analysis of the deposited data

Results flagged for a closer look

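The genotype difference of Sp5 was larger in round spermatids than in spermatocytes, by 2.68 log2 (SE 0.41), and that of Tcf7l1 by 2.12 log2 (SE 0.29). Both differences between cell types were given by an interaction term in the limma fit, over arrays of which the spermatid ones had served to choose the genes, so they are a description. For Sp5 the call in this contrast was lost without Baz1a-/- spermatocyte replicate 2, without control spermatid replicate 2 or 3, without any 1 of the 3 control spermatocyte replicates, with no filter on dim probes, and with the left-out array kept; its value ranged over 2.05 to 3.32 log2 as single arrays were left out. For Tcf7l1 the value ranged over 1.84 to 2.39 log2.

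Baz1a-/- spermatocyte replicate 1, which enters no test, held signal of 3 member genes. Sp5 stood at 8.15 log2 there, above both Baz1a-/- spermatocyte arrays used (6.17 and 7.43) and the control spermatocytes (4.29 to 4.54). Tcf7l1 stood at 5.75, within the Baz1a-/- arrays used (5.23 and 5.78) and above the control spermatocytes (4.40 to 4.74). Ctnnb1 stood at 8.79 by ILMN_2696575, within the Baz1a-/- arrays used (8.86 and 8.47) and above the control spermatocytes (8.23 to 8.66). In this array the spermatid markers had a median of 33.9% of the same mouse's spermatid signal, beside 24.0% for Sp5 and 21.1% for Tcf7l1.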

How the results depend on the processing

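No called difference of a member probe changed sign under any alternative run. In spermatids the members called were 2 under every alternative run. Between control cell types they were 2, or 3 with median scaling or at a fold of 1.5; between Baz1a-/- cell types they were 5, or 6 at a fold of 1.5, 4 with an offset of 50 or without background correction, and 4 to 5 as single arrays were left out. In spermatocytes the 1 member call became 0 with an offset of 50, without background correction and when only the groups compared were fitted, and 2 with the left-out array kept (Tcf7l1 joined Sp5, at 1.16 log2); leaving out single arrays gave 1 to 2, and the Sp5 difference was then 1.73 to 2.99 log2, with adjusted p up to 0.0379. The 2 calls in the difference of genotype effects became 1 with no detection filter and 1 with the left-out array kept, and were 1 to 2 as single arrays were left out; Tcf7l1 remained called in each.

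Pathway genes called in spermatids (4) numbered 1 with an offset of 50, 0 without background correction and 9 at a fold of 1.5, and 3 to 6 as single arrays were left out. In spermatocytes the 1 call became 0 with an offset of 50, without background correction and with only the groups compared, 2 with the left-out array kept, and 0 to 3 as single arrays were left out (3 without Baz1a-/- spermatocyte replicate 2). Between control cell types the 21 calls became 11 without background correction, and 20 to 22 as single arrays were left out. The causes were not tested.

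Over all probes the calls ranged over 307 to 1366 in spermatids (1158 as reported) and 4 to 840 in spermatocytes (118), the lowest without background correction and with only the groups compared, the highest without Baz1a-/- spermatid replicate 1 and with the left-out array kept. They ranged over 4378 to 9126 between control cell types (8123), 5004 to 10001 between Baz1a-/- cell types (9007) and 8 to 128 in the difference of genotype effects (44). Median scaling moved the median of all tested probes by -0.14 log2 in spermatocytes and by less than 0.1 in the other comparisons; Lef1 ILMN_2648475 was then called lower in control spermatids (-1.08 log2). Lef1 was no longer called between Baz1a-/- cell types with an offset of 50, without background correction, or without replicate 2 of either Baz1a-/- group.

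With mouse as a random replicate block the member calls were 2 in spermatids, 1 in spermatocytes, 2 between control and 5 between Baz1a-/- cell types. Across genotypes the replicate numbers are shared, but the labels do not say that they pair littermates. Deviations of same-numbered arrays correlated at 0.07 to 0.31 in spermatids and 0.42 to 0.54 in spermatocytes. With 2 Baz1a-/- spermatocyte arrays, their deviations mirror each other, so the spermatocyte values are tied and pairing is not read from them. With the number as a fixed replicate block the member calls were again 2, 1, 2 and 5, and 162 probes were called in spermatocytes in all, and 90 in the difference of genotype effects. Neither block changed a member call. A fit with the spermatid marker level as a covariate, chosen after seeing the data, left 1 member call in spermatocytes; its common slope cannot remove an RNA that control spermatids lack, so nothing is read from it.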
